A study of Mus musculus with 2 samples.

Results

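The 10 genes described here encode the immunoproteasome and the machinery that loads peptides onto classical MHC class I molecules. They are Psmb8, Psmb9, Psmb10, Psme1, Tap1, Tap2, Tapbp, B2m, H2-K1 and H2-D1, chosen by name from the 27998 genes in the count files. They were followed in ear skin from ICR mice, an outbred strain, aged 7 to 8 weeks. The control library came from healthy ears. The ACD library came from ears with allergic contact dermatitis elicited by the hapten 2,4-dinitrofluorobenzene (DNFB). By the study's methods, male mice were sensitized on the dorsal skin with 1.0% DNFB, challenged on the ears with 0.2% DNFB on day 6 and sampled 60 hr later. Each condition was 1 library, and how many mice each library held is not given in the sources used here. There are therefore no replicates and no test between conditions. All intervals below are 95% intervals that cover counting error only, of UMIs or, for shares of cells, of cells.

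The proteasome is the barrel-shaped protease that degrades cytosolic proteins into peptides. Under interferon, inducible catalytic subunits take the place of the constitutive ones, and the resulting immunoproteasome favors peptide ends that fit MHC class I. The TAP transporter carries these peptides into the endoplasmic reticulum, where tapasin holds the transporter beside an empty class I heavy chain paired with beta-2 microglobulin. The loaded complex is displayed to CD8+ T cells on nearly all nucleated cells, and in skin it is the surface on which hapten-modified peptides can be recognized.

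By the GENCODE M21 annotation of GRCm38, 7 of the 10 genes lie in the MHC on chromosome 17. Psmb9 (34181987 to 34187764, minus strand), Tap1 (34187553 to 34197225, plus strand), Psmb8 (34197721 to 34201454, plus strand) and Tap2 (34203527 to 34216321, plus strand) are side by side. Tapbp (33915899 to 33929292, plus strand) and H2-K1 (33996017 to 34000347, minus strand) lie on one side of them and H2-D1 (35262730 to 35267499, plus strand) on the other. The remaining genes are B2m on chromosome 2 (122147686 to 122153083, plus strand), Psmb10 on chromosome 8 (105935735 to 105938444, minus strand) and Psme1 on chromosome 14 (55578123 to 55581529, plus strand). Psmb9 and Tap1 are transcribed away from each other, with 225 bases between their RefSeq start sites. By GENCODE, in contrast, the 2 genes overlap from 34187553 to 34187764, and the RefSeq start of Psmb9 (34187330) lies inside its GENCODE gene.

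RefSeq promoter windows (GRCm38.p6) were found for 9 of the 10 genes, all except Tap2. The 250 bases before each start were searched on both strands for GGGNNTTNC (NF-kB-like), AANNGAAA (IRF-like), TTCNNNGAA (GAS-like), TGACGC (the X2-like box of class I promoters) and CCAAT. The letters were chosen after the windows had been read, and a match is a description of sequence only. H2-K1, H2-D1 and B2m, which encode the 2 chains of the class I molecule, each held an NF-kB-like and an IRF-like match. These occurred in 13.0% and 21.3% of all 32851 windows. No other member had either match. H2-K1 and H2-D1 also held TGACGC, found in 6.12% of windows, and Psmb8 held TTCNNNGAA, found in 7.02%. CCAAT was present in 6 of the 9 windows and in 33.8% of all windows. The windows of Psmb9 and Tap1 overlap, and their CCAAT match is the same stretch of bases, counted for both genes. The stretches of the class I chain genes are shown because they hold most of the matches. Matches are in capitals, and each sequence runs 5′ to 3′ along the gene.
H2-K1 (chr17:34000348-34000472, minus strand, upstream of the start): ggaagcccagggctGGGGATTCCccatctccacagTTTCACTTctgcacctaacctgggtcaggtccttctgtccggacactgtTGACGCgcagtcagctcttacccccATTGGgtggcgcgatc
H2-D1 (chr17:35262923-35262951, plus strand, from the NF-kB-like to the IRF-like match): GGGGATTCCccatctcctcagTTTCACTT
B2m (chr2:122147537-122147685, plus strand, upstream of the start): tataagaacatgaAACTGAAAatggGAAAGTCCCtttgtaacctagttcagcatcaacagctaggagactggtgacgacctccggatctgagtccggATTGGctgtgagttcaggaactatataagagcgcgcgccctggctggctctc
Over the 29 bases from the first match to the second, H2-K1 and H2-D1 differed at 1 base (A18T, H2-K1 base first, counted from 1 at the 5′ end). In B2m the matches came in the opposite order. GENCODE has a longer H2-D1 transcript whose first exon covers the H2-D1 stretch, so it is upstream of the start only by RefSeq.

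The files held 12895 control and 13163 ACD barcodes with 99037698 and 126566870 unique molecular identifiers (UMIs). Filtering left 12213 and 11665 cells (median 6850 and 7447 UMIs), and 50 barcodes occurred in both libraries. Cells were sorted by marker gates into stromal (4293 control and 1992 ACD cells; fibroblasts, endothelial and mural cells), epithelial (158 and 117; keratinocytes), cartilage (3426 and 2336), glial (302 and 314; Schwann cells), lymphoid (680 and 3106) and myeloid cells (158 and 621). Melanocytes and muscle cells were kept outside these 6 classes, and 23.9% of control and 24.8% of ACD cells met no gate. The level of a gene is its UMIs per 1000000 UMIs of the class, written CPM. It is a 3′ tag count with no correction for transcript length, so levels are compared between cells and not between genes. H2-K1 and H2-D1 belong to a family of near-identical genes, and reads from outbred mice were aligned to the reference strain, so the split between them is uncertain.

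All 10 genes were higher in the ACD library in each of the 6 classes, and no interval of a ratio reached 0 on the log2 scale. Sums of the 10 genes are carried mostly by H2-D1, B2m and H2-K1, with 127749, 78771 and 44431 of the 285670 member UMIs of ACD stromal cells. The summed levels, shares and per-cell counts below therefore follow these genes more than the other members. The summed level of the 10 genes was 2593 in control and 12723 in ACD stromal cells, a 4.91-fold difference (log2 ratio 2.29, 2.28 to 2.31). It was 2053 and 8278 in epithelial cells (2.01, 1.96 to 2.06) and 1242 and 5444 in cartilage cells (2.13, 2.12 to 2.15). The widest separation was in glial cells, at 1604 and 17159, a 10.7-fold difference (3.42, 3.35 to 3.49). Lymphoid cells began higher and differed less, at 5773 and 13086 (1.18, 1.16 to 1.20), as did myeloid cells at 5910 and 10568 (0.84, 0.79 to 0.89).

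**Figure D1:**
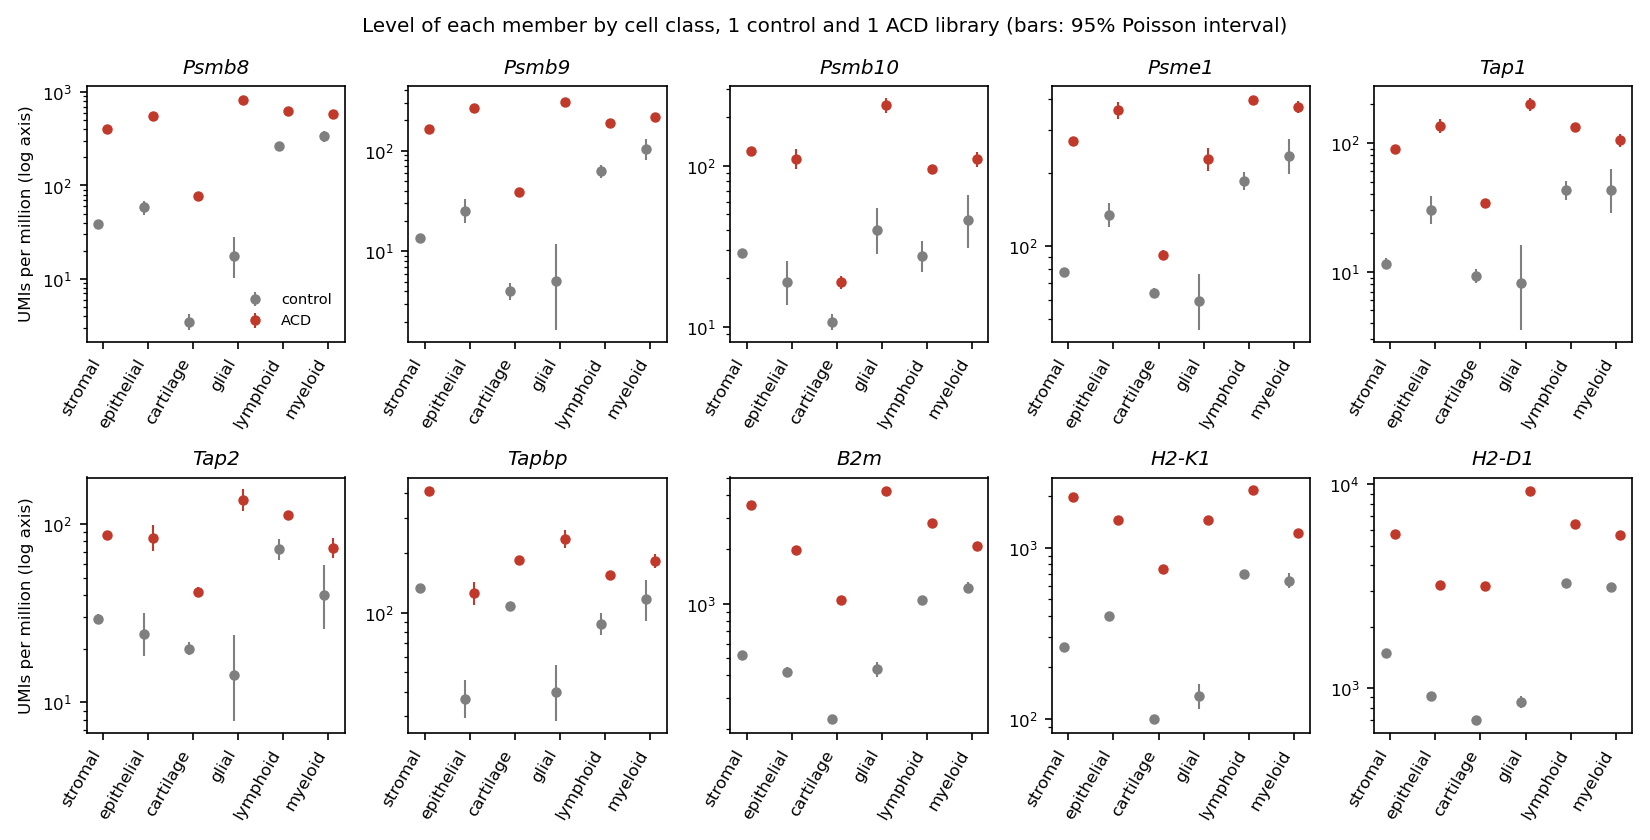
Level of each of the 10 genes (y axis, CPM on a log axis that differs between panels) in the 6 cell classes of the control (gray) and ACD (red) library, with exact Poisson intervals as bars. Each red point lies above its gray point, and the gap is wide in glial and stromal cells and narrow in lymphoid and myeloid cells.

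To read these ratios against other genes, a gene was called when it differed at least 2-fold after 10 CPM were added to each level, among genes with at least 50 UMIs. The members were chosen with earlier results of these data known, and they are counted among all genes. The shares of all genes are thus a background and not a test. In stromal cells all 10 members were called higher, where 0.827% of 12824 genes were higher and 0.125% lower. In epithelial cells all 10 were called higher, against 1.43% higher and 0.353% lower of 6798 genes. In glial cells all 10 were again called, against 2.03% and 0.184% of 5965 genes. In cartilage cells 6 members were called (Psmb8, Psmb9, Tap1, B2m, H2-K1 and H2-D1), against 0.34% and 0.00808% of 12369 genes. In lymphoid cells 7 were called, all except Tap2, Tapbp and H2-D1, against 1.38% and 1.54% of 10417 genes. In myeloid cells only Psmb10 and Tap1 were called, against 5.24% and 3.48% of 6437 genes. No member was called lower in any of the 6 classes. The median log2 ratio of the members with the same addition was 2.08 in stromal, 1.84 in epithelial, 1.50 in cartilage, 3.29 in glial, 1.33 in lymphoid and 0.81 in myeloid cells, while the median of all genes tested lay between -0.09 and 0.00.

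Among the inducible catalytic subunits, Psmb8 (the chymotrypsin-like subunit LMP7, which takes the place of Psmb5) had control levels of 38.9 in stromal, 58.1 in epithelial, 3.50 in cartilage, 17.4 in glial, 263 in lymphoid and 338 in myeloid cells. The ACD levels in the same order were 402, 552, 77.9, 824, 631 and 580. Among the 6 classes, myeloid and lymphoid cells were thus highest in the control library. Glial cells, at 17 control UMIs against 1190 in ACD, were the highest class in the ACD library. The myeloid class is mixed, and its mononuclear phagocytes alone were at 976 (928 to 1026) in ACD, above glial cells (778 to 872). The log2 ratio was 3.37 (3.29 to 3.45) in stromal cells, 4.48 (4.19 to 4.78) in cartilage and 5.57 (4.88 to 6.35) in glial cells. It was 1.26 (1.16 to 1.37) in lymphoid and 0.78 (0.57 to 0.99) in myeloid cells. Psmb8 stood at position 9 of 12824 genes in stromal cells, 4 of 12369 in cartilage and 3 of 5965 in glial cells by the ratio with 10 CPM added, which understates changes from low levels.

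Psmb9 (LMP2, which takes the place of Psmb6) had control levels of 13.4, 25.2, 4.02, 5.11, 62.3 and 104 in stromal, epithelial, cartilage, glial, lymphoid and myeloid cells. Its ACD levels in the same order were 164, 265, 38.9, 307, 188 and 216. Glial and epithelial cells of the ACD library had overlapping intervals at the top of this order, and both lay above the lymphoid and the mixed myeloid class. Within the myeloid class, however, ACD mononuclear phagocytes were at 353 (324 to 383) and basophils at 53.1 (40.2 to 68.8). Mononuclear phagocytes thus lay above epithelial cells, and their interval overlapped that of glial cells. The stromal log2 ratio was 3.61 (3.47 to 3.76). The glial ratio of 5.91 (4.67 to 7.54) rests on 5 control UMIs. Psmb10 (MECL-1, which takes the place of Psmb7) had control levels of 28.6, 18.9, 10.7, 39.9, 27.6 and 46.2, with overlapping intervals for every pair of neighbors in the order except epithelial and cartilage cells. Its ACD levels were 123, 111, 18.9, 239, 95.3 and 110. Glial cells stood above and cartilage cells below 4 classes whose neighbors overlapped. In cartilage its log2 ratio was 0.82 (0.60 to 1.03), and the spread of Psmb10 over the classes was 4.31-fold in the control and 12.7-fold in the ACD library.

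The constitutive subunits that these replace, Psmb5, Psmb6 and Psmb7, gave a comparison within each cell class that does not depend on depth. In control stromal cells there were 0.255 (0.245 to 0.266) UMIs of the 3 inducible genes for each UMI of the 3 constitutive genes. In ACD stromal cells there were 1.80 (1.75 to 1.85). Since UMIs of different genes are not compared as levels, only the change of this ratio between libraries or classes is read. The same ratio was 0.165 and 1.44 in epithelial cells, 0.117 and 2.49 in glial cells, 0.814 and 1.96 in lymphoid cells and 1.09 and 2.32 in myeloid cells. Cartilage cells had the lowest ratio in both libraries, at 0.0448 (0.0410 to 0.0490) and 0.352 (0.338 to 0.366). On the log2 scale the ratio was higher in ACD by 2.82 (Wald interval 2.75 to 2.89) in stromal, 3.13 (2.90 to 3.36) in epithelial, 2.97 (2.83 to 3.11) in cartilage and 4.41 (4.01 to 4.81) in glial cells. It was higher by 1.27 (1.15 to 1.39) in lymphoid and 1.09 (0.84 to 1.34) in myeloid cells. The pairs were not alike. In stromal cells the ratio of Psmb9 to Psmb6 was higher in ACD by 3.44 on the log2 scale (3.29 to 3.59), that of Psmb8 to Psmb5 by 2.94 (2.83 to 3.06) and that of Psmb10 to Psmb7 by 1.82 (1.68 to 1.96).

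**Figure D2:**
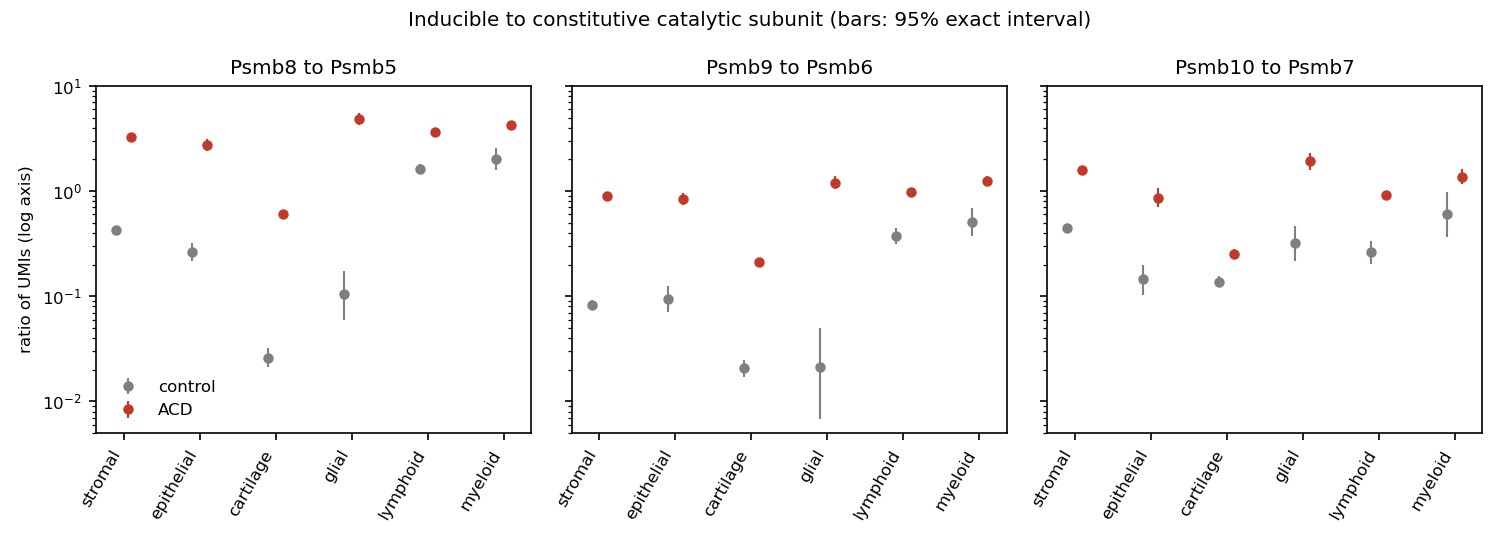
UMIs of each inducible catalytic subunit per UMI of the constitutive subunit it replaces (y axis, log scale) in 6 cell classes of the control (gray) and ACD (red) library, with exact intervals as bars. Each red point lies above its gray point, and the gap for Psmb10 to Psmb7 is narrow in cartilage, at 0.138 and 0.251.

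Psme1 encodes the alpha subunit of the PA28 activator, a ring that opens the proteasome core. Its control levels were 78.2 in stromal, 134 in epithelial, 63.9 in cartilage, 59.3 in glial, 184 in lymphoid and 234 in myeloid cells, and its ACD levels were 270, 362, 91.7, 226, 398 and 372. Lymphoid, myeloid and epithelial cells of the ACD library lay at the top with overlapping neighbors. In stromal cells its log2 ratio of 1.79 (1.73 to 1.86) was below those of the inducible catalytic subunits. In cartilage it was 0.52 (0.43 to 0.61), with an interval that overlapped that of Psmb10. In lymphoid and myeloid cells it was 1.11 (0.99 to 1.24) and 0.67 (0.42 to 0.93), with intervals that overlapped those of Psmb8.

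Tap1 and Tap2 encode the paired subunits of the peptide transporter. Tap1 had control levels of 11.5, 30.2, 9.23, 8.18, 42.8 and 43.0 in stromal, epithelial, cartilage, glial, lymphoid and myeloid cells and ACD levels of 90.0, 135, 34.1, 199, 133 and 104. Tap2 had control levels of 29.3, 24.3, 19.99, 14.3, 72.4 and 39.8 and ACD levels of 86.8, 83.7, 41.6, 136, 112 and 73.3. Glial cells of the ACD library were highest for both genes, from 8 and 14 control UMIs. Tap1 differed more than its partner in stromal cells, with log2 ratios of 2.96 (2.81 to 3.12) and 1.57 (1.46 to 1.68). The same held in cartilage, at 1.88 (1.68 to 2.09) and 1.06 (0.91 to 1.21), and in lymphoid cells, at 1.64 (1.38 to 1.90) and 0.63 (0.43 to 0.84). In epithelial, glial and myeloid cells the intervals of the partners overlapped.

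Tapbp encodes tapasin, which bridges the transporter and the empty class I molecule. It had control levels of 132 in stromal, 36.9 in epithelial, 108 in cartilage, 39.9 in glial, 87.6 in lymphoid and 116 in myeloid cells, and ACD levels of 409, 125, 183, 235, 155 and 182. Unlike the other members, it was highest in stromal cells in both libraries, although in the control library the intervals of stromal and myeloid cells overlapped. The stromal log2 ratio was 1.63 (1.58 to 1.68). The ratio was 0.77 (0.70 to 0.83) in cartilage, 0.82 (0.64 to 1.01) in lymphoid and 0.65 (0.29 to 1.02) in myeloid cells.

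B2m encodes beta-2 microglobulin, the invariant light chain of class I. It had control levels of 520 in stromal, 416 in epithelial, 227 in cartilage, 432 in glial, 1041 in lymphoid and 1228 in myeloid cells and ACD levels of 3508, 1984, 1051, 4219, 2808 and 2095. In the control library stromal cells were at 49.97% of the lymphoid level, whereas in the ACD library stromal cells stood at 125% and glial cells at 150% of lymphoid cells. The stromal log2 ratio was 2.75 (2.73 to 2.78) and the myeloid ratio 0.77 (0.66 to 0.88).

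H2-K1 and H2-D1 encode the polymorphic heavy chains that hold the peptide. H2-K1 had control levels of 261, 397, 100.4, 136, 705 and 642 in stromal, epithelial, cartilage, glial, lymphoid and myeloid cells and ACD levels of 1979, 1444, 752, 1455, 2178 and 1219. H2-D1 had control levels of 1479, 913, 695, 852, 3287 and 3119 and ACD levels of 5689, 3218, 3155, 9318, 6387 and 5617. H2-K1 was highest in lymphoid cells in both libraries, while H2-D1 was highest in lymphoid cells of the control and in glial cells of the ACD library. In the control, the intervals of lymphoid and myeloid cells overlapped for both genes. The log2 ratio of H2-K1 exceeded that of H2-D1 in stromal cells, at 2.92 (2.89 to 2.95) and 1.94 (1.93 to 1.96), and in lymphoid cells, at 1.63 (1.56 to 1.69) and 0.96 (0.93 to 0.99). In glial cells they did not separate, at 3.42 (3.17 to 3.68) and 3.45 (3.35 to 3.55). In cartilage cells H2-K1 was second and H2-D1 the sixth of 12369 genes by the ratio with 10 CPM added, while without that addition the cartilage ratio of Psmb8 exceeded that of H2-K1, at 4.48 and 2.90.

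The order of the classes therefore differed between the libraries. In the control, the summed level ran from myeloid and lymphoid cells, whose intervals overlapped, through stromal, epithelial and glial cells to cartilage, a 4.76-fold range. In ACD it ran from glial through lymphoid, stromal, myeloid and epithelial cells to cartilage, a 3.15-fold range. Stromal cells stood at 44.9% of the lymphoid level in the control and 97.2% in ACD, and glial cells at 27.8% and 131%. For Psmb8 the range over classes was 96.6-fold in the control and 10.6-fold in the ACD library. The range was wider in ACD for Psmb10 (4.31-fold and 12.7-fold), Psme1 (3.95-fold and 4.34-fold) and Tap1 (5.26-fold and 5.85-fold). For the other members it was narrower in ACD. Single members could depart from the order of the sum. Psmb9 in ACD ran from glial through epithelial, myeloid, lymphoid and stromal cells to cartilage. Of all member UMIs of the library, stromal cells held 44.9% in the control and 27.5% in ACD, beside 37.0% and 22.5% of the UMIs of all genes. Lymphoid cells held 8.70% and 26.1% of member UMIs, beside 3.22% and 20.8% of the UMIs of all genes. These member shares therefore also follow how much of each library a class made up.

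Finer gates showed how the classes were made up. Within the stromal class the log2 ratio of the summed genes was 2.30 (2.28 to 2.31) in fibroblasts, 2.27 (2.21 to 2.32) in endothelial cells and 2.17 (2.14 to 2.21) in mural cells. Endothelial cells had the highest ACD level among these, 16422 against 12571 in fibroblasts and 12020 in mural cells. Melanocytes, the neural crest-derived pigment cells, had a ratio of 2.42 (2.37 to 2.47), with Psmb8 at 11.9 in control and 665 in ACD melanocytes (5.81, 5.06 to 6.69). Muscle cells had a summed ratio of 2.51 (2.36 to 2.66) from 414 control UMIs. T/NK/ILC cells made up nearly all of the lymphoid class and had a ratio of 1.18. This gate joins T, NK and ILC cells, and held 676 control and 3075 ACD cells. The paper reports that some lymphocyte subsets rose in share in ACD and others did not. The part of subset makeup in the lymphoid ratios was not tested.

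The myeloid class held different cells in the 2 libraries. It comprised 56 mononuclear phagocytes, 92 mast cells, 7 basophils and 3 neutrophils in the control and 166, 148, 240 and 67 in the ACD library. Mononuclear phagocytes alone went from a summed level of 7293 to 11534 (0.66, 0.61 to 0.72) and mast cells from 1987 to 6109 (1.62, 1.45 to 1.80). The mast cell ratio rests on 310 control UMIs, and the control counts of basophils and neutrophils, 98 and 46 UMIs for all 10 genes, were too few to read single members. The myeloid values also depended on the processing. With a looser gate the class ratio was 1.39 with 8 members called, and as a mean over cells it was 1.33 with 6 called. In mononuclear phagocytes Psmb10 had the highest ratio (1.72, 1.14 to 2.36) and H2-D1 the lowest (0.34, 0.26 to 0.42).

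**Figure D3:**
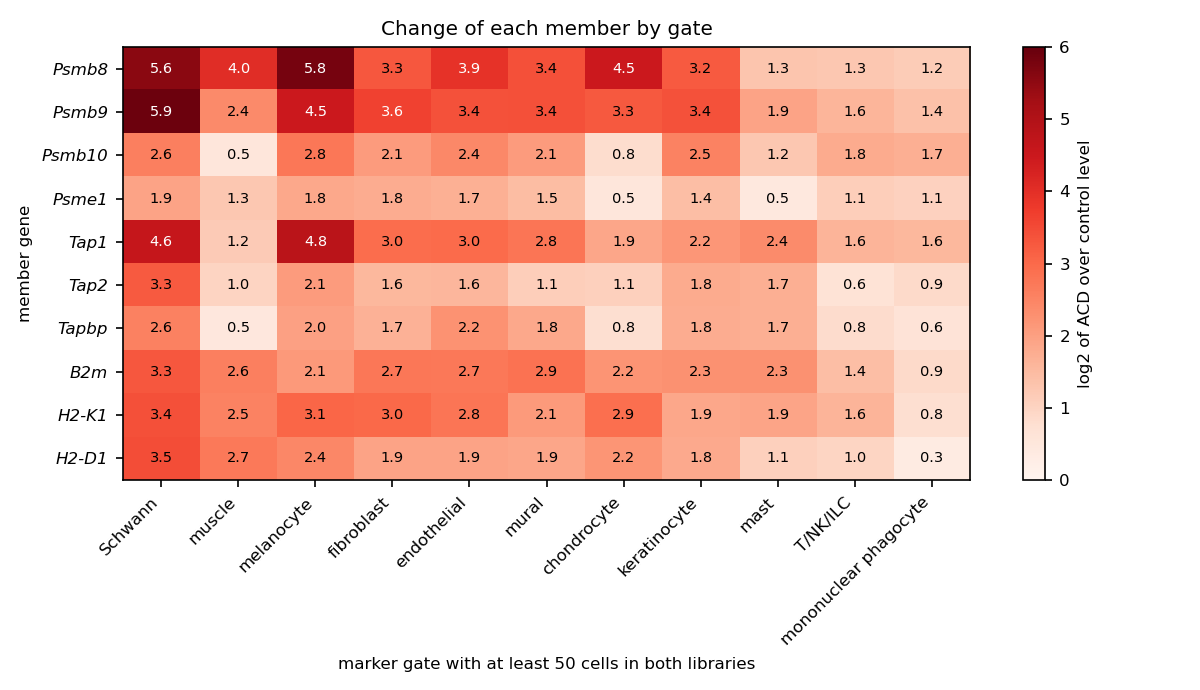
Log2 ratio of ACD over control level (color and printed value) for the 10 genes (rows) in the 11 marker gates with at least 50 cells in both libraries (columns, ordered by the ratio of the summed genes). Schwann cells and melanocytes have the darkest cells for Psmb8, Psmb9 and Tap1, and the T/NK/ILC and mononuclear phagocyte columns are pale throughout.

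Leukocytes carry high levels of these genes and were more frequent in the ACD library. Leukocyte RNA in the other classes was therefore estimated with 7 leukocyte genes that no gate used (Ptprc, Coro1a, Laptm5, Cd53, Ptpn6, Nkg7 and Ccl5). Their summed level in control and ACD cells was 16.7 and 81.9 in stromal, 24.8 and 119 in epithelial, 22.3 and 84.3 in cartilage and 37.8 and 332 in glial cells. It moved in the same direction as the members, and as a share of the level in lymphoid and myeloid cells together it went from 0.584% to 1.72% in stromal cells and from 1.33% to 6.95% in glial cells. In melanocytes the share went from 1.10% to 7.50%. All 7 genes were detected in ACD cells of these classes, led by Ccl5 (26.5 CPM in stromal and 105 CPM in glial cells), and 1 of the 7 was at 0 in control epithelial and 1 in control glial cells. Whether these UMIs came from leukocytes or from the cells' own expression was not tested. When only cells without a UMI of these 7 genes were kept, the log2 ratio of the summed members was 2.28 in stromal, 2.09 in epithelial, 2.16 in cartilage and 3.45 in glial cells, beside 2.29, 2.01, 2.13 and 3.42 over all cells of these classes.

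The difference was spread over many cells of a class. After every cell was thinned to 2000 UMIs, with shallower cells left out (36 control and 8 ACD stromal cells, 63 and 27 glial cells, and 74 of 158 control and 137 of 621 ACD myeloid cells), the median stromal cell had 5 UMIs of the 10 genes in the control and 23 in the ACD library. The median was 3 and 15 in epithelial, 2 and 8 in cartilage, 2 and 34 in glial, 10 and 25 in lymphoid and 9 and 18 in myeloid cells. The cut fell unevenly on myeloid cells. Mast cells had median depths of 1066 control and 1730 ACD UMIs, and mononuclear phagocytes 6742.5 and 8428.5. The thinned myeloid values therefore compare different mixtures of cells. Of ACD cells, 78.4% of stromal (76.6 to 80.2, Clopper-Pearson), 68.8% of epithelial (59.2 to 77.3), 54.6% of cartilage (52.6 to 56.7) and 91.3% of glial cells (87.4 to 94.3) exceeded the 95th percentile of control cells of their class. Without thinning these shares were 83.9%, 79.5%, 62.4% and 91.4%. In lymphoid and myeloid cells 48.0% (46.2 to 49.7) and 18.2% (14.8 to 21.9) exceeded it (46.8% and 33.3% without thinning). Cartilage cells of the ACD library had quartiles of 3 and 17 UMIs around the median of 8.

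**Figure D4:**
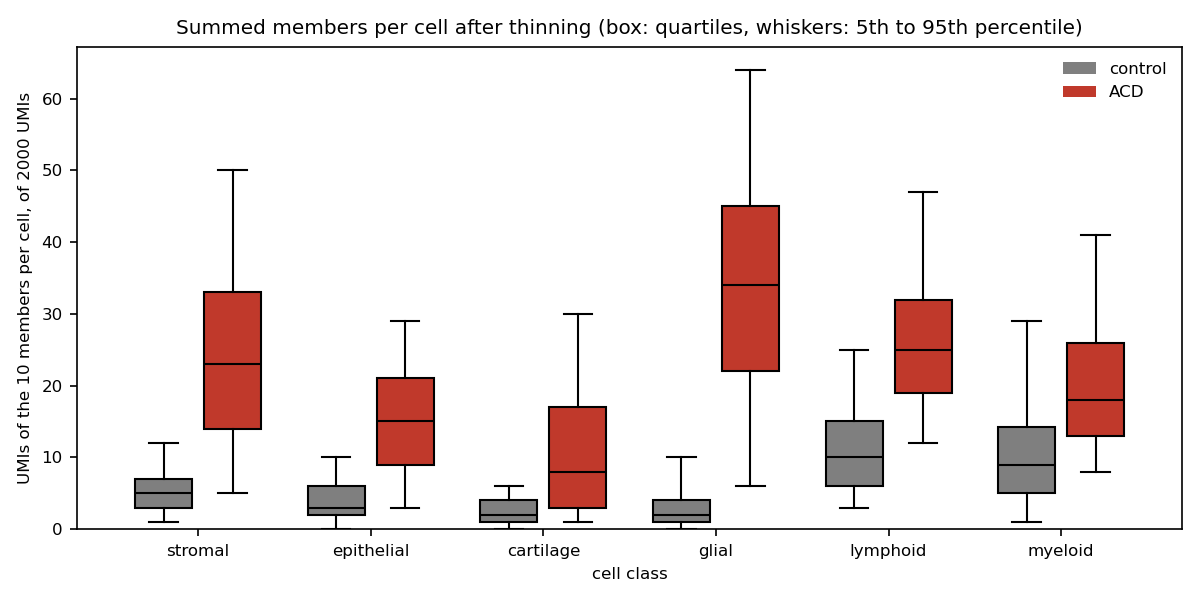
UMIs of the 10 genes summed per cell after thinning each cell to 2000 UMIs (y axis) in 6 classes of the control (gray) and ACD (red) library. Boxes give quartiles and medians over cells and whiskers the 5th and 95th percentiles. The lower quartile of ACD glial cells, 22 UMIs, is above the 95th percentile of control glial cells, 10 UMIs.

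The other 55 genes of the pathway analysed here, in 8 lists, gave few calls. In stromal cells 1 of 55 was called higher, in epithelial cells 0 of 51 tested, in cartilage 0 of 54, in glial cells 3 of 47, in lymphoid cells 1 of 55 and in myeloid cells 1 of 50, and none was called lower. The shares of all genes called higher in these classes were 0.827%, 1.43%, 0.34%, 2.03%, 1.38% and 5.24%. The median log2 ratio of the tested genes was 0.18 in stromal, 0.06 in epithelial, -0.03 in cartilage, 0.09 in glial, 0.10 in lymphoid and -0.01 in myeloid cells. The constitutive catalytic subunits had medians from -0.23 in myeloid to 0.25 in stromal cells. The 11 other core subunits had medians from -0.05 in cartilage to 0.34 in stromal cells. The 17 genes of the 19S regulatory particle, which recognizes and unfolds ubiquitinated substrates, had medians from -0.09 to 0.12. The medians of the other peptide loading and ER trimming genes were higher in some classes, at 0.42 in stromal and 0.34 in myeloid cells, and those of the transcription factors were 0.64 in glial and 0.77 in myeloid cells, over 2 tested genes each. The remaining lists had medians from -0.27 to 0.24.

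The stromal gene past 2-fold was Psme2, the partner of Psme1 in PA28, which was at 87.7 in control and 193 in ACD stromal cells (log2 ratio 1.14, 1.07 to 1.21). Its count can share reads with a near-identical copy. Outside the naming rule, and picked after their values were seen, the glial genes were Irf1, Lap3 and Psme2, and that of lymphoid and of myeloid cells was Irf1. Irf1, an interferon-inducible transcription factor, was at 638 in control and 657 in ACD stromal cells (0.04, 0.01 to 0.07). Nlrc5, the class I transactivator, also picked after its values were seen, was low, at 17 control and 155 ACD UMIs in stromal cells (0.499 and 6.90 CPM; log2 ratio 3.79, 3.07 to 4.61), so it did not pass once 10 CPM were added. The same held in stromal cells for Tapbpl, the tapasin-related protein, at 183 control and 365 ACD UMIs (3.03-fold, 2.53 to 3.64), and for Erap1, the aminopeptidase that trims peptides in the endoplasmic reticulum, at 285 control and 427 ACD UMIs (2.28-fold, 1.95 to 2.65), which were picked in the same way.

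**Figure D5:**
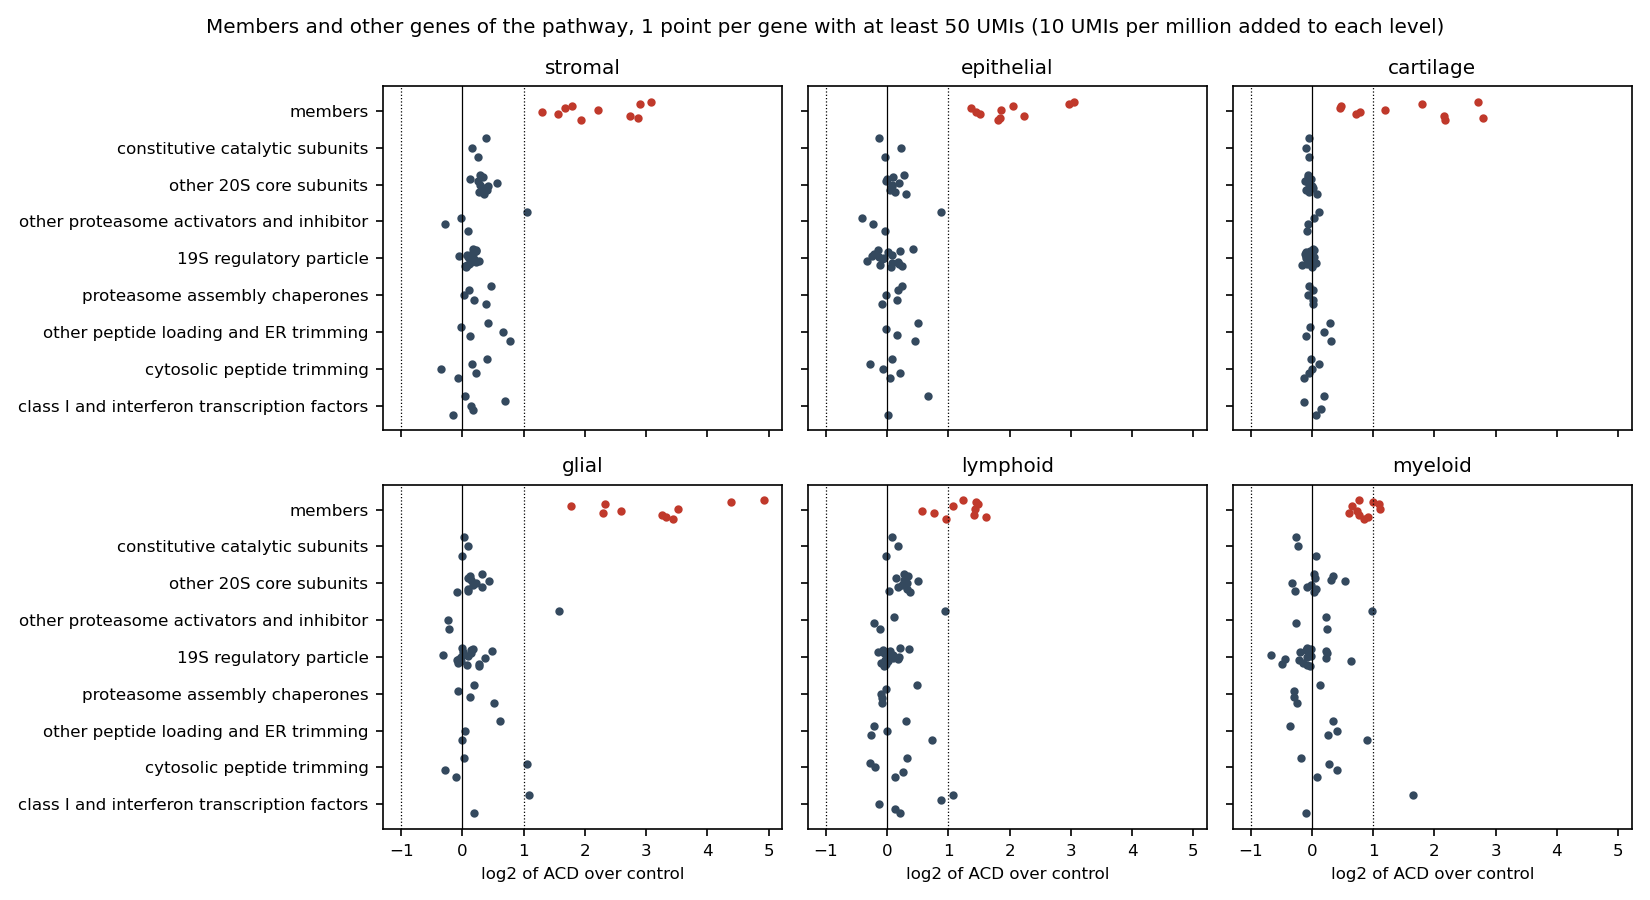
Log2 ratio of ACD over control (x axis, 10 CPM added to each level, dotted lines at 2-fold) for the 10 members (red) and the other genes of 8 pathway lists (dark), 1 point per gene with at least 50 UMIs, in 6 cell classes. The members lie to the right of 0 in each class, and among the listed genes Psme2, Irf1 and Lap3 pass 2-fold in at least 1 class.

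Fibroblasts of the ACD library were also split by Cxcl9, the gene of a chemokine that attracts T cells. The 366 fibroblasts with a Cxcl9 UMI had higher levels of the 10 genes than the 1208 without, from 1.29-fold for H2-D1 to 2.35-fold for Psmb10, and were deeper (median 14130 and 9879 UMIs). In the fibroblasts without Cxcl9, the members were from 2.55-fold (Tap2) to 8.93-fold (Psmb9) higher than in control fibroblasts.

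Across the 22 points given by 11 gates in both libraries, the 45 pairs of members had Pearson correlations of log2(level + 10) from 0.596 to 0.971, with a median of 0.849. The points share their libraries, so this is a description. Among 10553 genes, those outside the pathway with a pattern most like the mean of the members were H2-T23 (0.923), Zbp1 (0.912), Irf7 (0.903), H2-Q7 (0.901), Gbp2 (0.874), Igtp (0.868), H2-Q6 (0.865) and Dtx3l (0.863). In stromal cells H2-T23, a non-classical class I gene, was at 105 in control and 382 in ACD cells, and Gbp2, a guanylate-binding protein, at 21.7 and 240.0. Within the pathway Psmb9 (0.970) and Tap1 (0.960) were closest to the mean of which they are part, and Tapbp was the farthest member (0.806).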

How the data were processed

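Ear skin was digested to single cells and 1 control and 1 ACD library were made with a 10x 3′ kit. The authors ran Cell Ranger on mm10 (version 3.1.0 by the submitters' processing notes, while the methods name an earlier version) and deposited raw UMI counts, not normalized. The clusters of the study were left aside.

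Python 3.11.15, numpy 2.4.6, scipy 1.17.1, pandas 2.3.3, scanpy 1.11.5 and matplotlib 3.10.9 were used. Cells with 201 to 4999 genes, at most 25000 UMIs (the methods print this limit as a lower one) and under 8% mitochondrial UMIs were kept. The study states fewer cells than this filter left. A cell entered the gate with the highest mean ln(1 + UMIs per 10000) of its markers if at least 3 markers were detected and no other class scored above 0.5 of it. These thresholds were set after the cells had been seen. Doublets were kept unless stated. UMIs were summed per class, with Poisson intervals for levels and conditional binomial intervals for ratios (Wald for the change of a subunit ratio). The intervals and calls were tried on simulated Poisson counts. These counts hold no variation between cells or libraries, so they cannot show how the intervals do under such variation.

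The members and the lists were chosen with earlier results of these data known. Genes named are the 10 members, pathway genes past 2-fold in stromal or epithelial cells (at most 3 per list), the 8 most similar genes and Cxcl9. Of the 27998 identifiers, 27645 were found in GENCODE M21. Alternatives were other cell filters, stricter and looser gates, Scrublet calls removed, median-of-ratios size factors, averaging over cells, a pseudocount of 1, other UMI minimums and thinning to 1000 UMIs. Added after seeing the data were the removal of barcodes shared by the libraries and of cells with leukocyte UMIs. Some listed genes were left out of every list and are not reported here. The other experiments of the study were not analysed here.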

Additional observations from a re-analysis of the deposited data

Results flagged for a closer look

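Cells that met no gate, and so entered no comparison by class, also had higher levels in the ACD library. The 10 genes summed to 1977 CPM in 2913 control cells and 10168 in 2892 ACD cells, a log2 ratio of 2.36 (2.35 to 2.38), with single members from 1.31 to 3.61. The leukocyte check list was at 160.4 and 977 in these cells, 5.63% and 20.5% of its level in lymphoid and myeloid cells. Its part in the result was not tested.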

How the results depend on the processing

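No paired analysis was possible because each condition was 1 library and no test was made. Of 520 values of single members under the alternatives, all were above 0. The log2 ratio of the summed members is given first for each setting. With all deposited barcodes it was 2.28 in stromal, 2.18 in epithelial and 1.13 in lymphoid cells, with 2 epithelial, 0 lymphoid and 2 myeloid listed genes and 1 myeloid member past 2-fold. With at least 500 genes and under 5% mitochondrial UMIs it was 2.31 in stromal and 0.75 in myeloid cells, with 1 myeloid member past 2-fold. With a stricter gate it was 2.27 in stromal, 2.03 in cartilage and 3.65 in glial cells, the change of the subunit ratio was 2.74 in cartilage, and 1 myeloid member passed. With a looser gate it was 2.25 in cartilage, 3.27 in glial and 1.39 in myeloid cells, the subunit change was 3.17 in cartilage and 1.65 in myeloid cells, and 8 myeloid members and 1 glial listed gene passed. With Scrublet calls removed it was 2.16 in cartilage, and 45.7% of ACD lymphoid cells exceeded the control percentile. As a mean over cells it was 2.25 in stromal, 1.86 in epithelial, 1.23 in lymphoid and 1.33 in myeloid cells, the stromal subunit change was 2.71, and 6 myeloid members, 1 glial and 2 myeloid listed genes passed. Median-of-ratios size factors set to 0 the median log2 ratio of genes with at least 50 UMIs in each library, which by the main scaling was -0.15 in lymphoid and in myeloid cells, and the summed ratio was then 2.18 in cartilage, 3.51 in glial, 1.33 in lymphoid and 0.99 in myeloid cells, with 5 myeloid members and 3 listed genes in each of lymphoid and myeloid cells. With at least 20 UMIs 1 epithelial listed gene passed. Thinned to 1000 UMIs, 75.7% of stromal, 58.8% of epithelial, 46.0% of cartilage, 44.1% of lymphoid and 26.4% of myeloid ACD cells exceeded the control percentile. Without cells carrying leukocyte UMIs it was 2.28 in stromal, 2.09 in epithelial and 2.16 in cartilage cells. Without the barcodes shared by the libraries no value moved beyond its counting interval. The count of members past 2-fold in myeloid cells ranged from 1 to 8 over these settings, and in stromal, epithelial and glial cells it was 10 under each. The cause of these shifts was not tested. Depth limits the glial, muscle and myeloid subtype values, where control UMIs of single members were few.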
